A study of Mus musculus with 12 samples.

Results

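Atf4, Atf3, Ddit3, Trib3, Chac1, Asns, Psat1, Ddit4, Ppp1r15a and Nupr1 are 10 genes of the integrated stress response (ISR) that ATF4 controls, and their transcript levels were compared in cardiomyoblasts treated with doxorubicin alone or together with a protective agent. They were chosen by name from the 54345 genes measured, with their levels in these same libraries already seen. Their levels and differences are therefore given as a description, with no p-value. The counts of them that the fit across all genes called are printed only beside the share of all genes called in that fit. After doxorubicin, 7 of the 10 were below every untreated library, while Asns, Psat1 and Nupr1 were above every untreated library on the scale of the deposited values. Of all 25044 genes tested, 51.8% had DOX and Unt libraries that did not overlap, 26.6% with DOX below and 25.3% with DOX above. With the hexacyanoferrate nanocatalysts added, the 7 were above every doxorubicin library again and the other 3 below them on that scale, where the sign for Nupr1 depended on the scaling. Of all genes, 53.2% had libraries of these 2 groups that did not overlap, 32.5% with the nanocatalyst libraries above and 20.7% with them below.

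The 12 libraries hold poly(A) RNA from H9c2(2-1) cells, with 3 libraries in each of 4 groups, all collected 6 h into treatment. The cells are a wild-type line labelled as myoblasts, which the paper describes as rat while the organism field reads Mus musculus. Unt cells received no drug, DOX cells received doxorubicin, an anthracycline used against tumours that harms the heart, D_DXZ cells received doxorubicin and dexrazoxane (DXZ), the clinical protectant against that harm, and D_MgHCF cells received doxorubicin and magnesium hexacyanoferrate nanocatalysts (MgHCF NCs). All treated groups thus share doxorubicin, and cells given DXZ or MgHCF NCs without it were not analysed here. The doses in the sequenced cells are not given in the sources used here. Nothing states that the 3 libraries of a group came from separate cultures, so every p-value below measures the spread between these libraries, which may be technical.

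The authors deposited FPKM (fragments per kilobase of gene, scaled by a factor for each library, so that levels of genes can be compared per length). Whole reads were recovered from them, 16626514 to 19365119 on genes per library. The library sizes that the values imply follow the median-ratio factors of these reads, which are set so that the typical gene is level between libraries. They do not follow the summed reads, of which they were 0.647 (DOX replicate 3) to 1.43 times (D_MgHCF replicate 2). The values carry mouse gene identifiers on GRCm38, and how well rat reads match each mouse gene was not tested. Within a group the log2(FPKM + 1) values of 2 libraries correlated at 0.989 or more in Unt, DOX and D_DXZ, and at 0.942 to 0.984 in D_MgHCF. Of 9 skeletal myoblast markers 3 passed 1 FPKM in any library, Des (up to 1.57), Cdh15 (up to 1.04) and Mef2c (up to 1.02), while Myod1, Myf5, Myog, Myf6 and Pax7 did not exceed 0.126 FPKM, and of 8 cardiac markers only Gata4 passed 1 FPKM. The summed FPKM of 5 mesenchymal markers (4 of them above 1 FPKM) was 2449 to 3290 in the DOX libraries and 1994 to 2691 in those of D_DXZ, against 527 to 642 untreated and 323 to 633 with MgHCF NCs, and its part in the results below was not tested. In bulk RNA, fewer cells of a type and less RNA per cell cannot be told apart.

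In the ISR, kinases that sense amino acid lack, misfolded protein in the endoplasmic reticulum (ER), haem lack or double-stranded RNA phosphorylate the translation factor eIF2. General translation then falls while the Atf4 mRNA is translated better, and the ATF4 protein, with C/EBP partners, switches on genes for amino acid supply, for the feedback that restores translation and, when stress lasts, for cell death. ATF4 is thus set mainly at translation, and the values here are transcript levels of the gene and its targets, not ATF4 activity.

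ATF4 and its partners bind the C/EBP-ATF response element, whose core TGATGNAA (N is any base) was searched on both strands in the RefSeq promoters of the mouse genome (GRCm38.p6, 250 bases before to 50 after each start). It was found in 5 of the 10 genes against 4.51% of 27025 genes in the table. Of the genes described further on that the table holds, it was found in 14 of 55 pathway genes and in 0 of 14 ER chaperone genes. The 5 sites are shown because they sit both in genes that were low after doxorubicin (Atf3, Trib3, Chac1) and in genes that were not (Asns, Nupr1), with the core in capitals as it reads along the gene's strand and 8 bases on either side.
Asns: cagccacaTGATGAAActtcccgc
Atf3: tctcgcacTTGCATCAccaagtcc
Chac1: ccctgccgTTGCATCActcctgcc
Nupr1: gggccagaTTGCATCAgacagggc
Trib3: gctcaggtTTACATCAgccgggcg
The first base of the site lies 23 bases before the start of Asns, 110 before those of Atf3 and Nupr1 and 193 before that of Chac1, while in Trib3 it is base 15 from the start. The full cAMP response element TGACGTCA, which ATF and CREB family dimers bind, was found in 2.03% of genes and, among the 10, in Ppp1r15a only, 12 bases before its start.
Ppp1r15a: ctctccggTGACGTCAgcacagcg
The ER stress element, CCAAT and CCACG separated by 9 bases and bound by ATF6, was found in 0 of the 10 genes, in 0.137% of all genes and in 6 of the 14 ER chaperone genes (Hspa5, Hsp90b1, Dnajc3, Pdia6, Creld2 and Calr). A match is a description of these letters in the mouse genome and not a site shown to be bound in these cells.

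More of the sequence is printed for Atf3 and Chac1, whose cores lie before the RefSeq start and which were both low in DOX, while with MgHCF NCs Atf3 was above and Chac1 below every Unt library. For Atf3 this start lies inside the deposited gene span, chr1:191170296-191218039, and the cores were not compared with annotated exons. The stretches run from base 250 to base 51 before the RefSeq start, 5′ to 3′ along the gene with the core in capitals, at chr1:191183384-191183583 on the minus strand for Atf3 and chr2:119350992-119351191 on the plus strand for Chac1.
Atf3: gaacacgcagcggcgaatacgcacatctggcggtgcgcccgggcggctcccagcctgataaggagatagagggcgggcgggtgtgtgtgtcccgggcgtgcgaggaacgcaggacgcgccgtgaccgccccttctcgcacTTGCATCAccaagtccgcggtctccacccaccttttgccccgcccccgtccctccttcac
Chac1: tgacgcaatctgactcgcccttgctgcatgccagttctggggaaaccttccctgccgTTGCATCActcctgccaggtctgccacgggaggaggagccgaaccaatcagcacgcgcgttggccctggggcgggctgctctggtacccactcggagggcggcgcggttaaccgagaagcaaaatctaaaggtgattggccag

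Atf4 encodes the transcription factor of the response and lies at chr15:80255184-80257541 on the plus strand (GRCm38, as in the deposited file), with 3 exons. It was at 271, 294 and 295 FPKM in Unt, 27.7, 19.7 and 18.4 in DOX, 85.1, 49.6 and 33.9 in D_DXZ, and 31.4, 78.3 and 109 in D_MgHCF. In untreated cells it was the highest of the 10 genes, above 99.7% of the genes tested, and no treated library reached the Unt range. The mean of 287 ± 13.8 FPKM (SD, n = 3) in Unt was 13.1-fold that of 21.9 ± 5.07 in DOX, a difference of -3.67 in log2(FPKM + 1) with a standard error (SE) of 0.428. D_DXZ at 56.2 ± 26.2 and D_MgHCF at 73.0 ± 39.3 overlapped each other, and all their libraries were above all DOX libraries. The order of the means was Unt, D_MgHCF, D_DXZ and DOX.

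Atf3 and Ddit3 encode transcription factors that ATF4 induces, and Ddit3 gives CHOP, which drives death genes in lasting ER stress. Atf3 (chr1:191170296-191218039, minus strand) was at 12.8, 13.9 and 15.3 FPKM in Unt, 5.93, 2.03 and 2.53 in DOX, 3.39, 3.93 and 1.60 in D_DXZ, and 21.8, 33.0 and 24.6 in D_MgHCF. It was the gene of the 10 whose D_MgHCF libraries all lay above Unt, at 26.4 ± 5.84 FPKM against 14.0 ± 1.26, while DOX and D_DXZ overlapped. The log2 difference of Atf3 was -1.83 (SE 0.321) for DOX against Unt and 0.85 for D_MgHCF against Unt.

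Ddit3 was at 50.004, 52.2 and 52.4 FPKM in Unt, 14.8, 10.7 and 9.18 in DOX, 18.5, 13.2 and 8.79 in D_DXZ, and 25.0, 63.4 and 62.1 in D_MgHCF. D_MgHCF replicate 1 lay between the DOX and Unt ranges, and the other two D_MgHCF libraries were above every Unt library. The difference of Ddit3 from Unt was -2.09 (SE 0.350) in DOX, -1.91 in D_DXZ and -0.15 in D_MgHCF, where the libraries overlapped those of Unt. Ddit3 (chr10:127290774-127296288, plus strand) shares 68 bases with Mars on the other strand, which reached 151 FPKM, and the counting is not stated to use strand. It also shares 2925 bases with AC144852.1, a protein-coding gene on the same strand listed at 0 FPKM in all libraries. How reads in shared bases were assigned is not given in the sources used here.

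Trib3, a pseudokinase that ATF4 and CHOP induce and that dampens ATF4 in return (chr2:152337422-152344032, minus strand), was at 143, 149 and 168 FPKM in Unt, 3.97, 1.43 and 1.14 in DOX, 35.8, 17.2 and 6.62 in D_DXZ, and 9.41, 9.04 and 17.5 in D_MgHCF. It showed the largest difference of the 10 between Unt and DOX, 70.3-fold by the means, on 28 to 128 reads per DOX library. The difference in log2(FPKM + 1), where the added 1 shrinks folds at low levels, was -5.70 (SE 0.514), and -6.29 with voom. It was the fourth highest of the 10 in Unt and the lowest in DOX. D_DXZ and D_MgHCF overlapped, at 19.9 ± 14.8 and 12.0 ± 4.81 FPKM, and both were above every DOX library and below every Unt library.

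Chac1 and Ddit4 are effectors of the late response. Chac1, an enzyme that degrades glutathione (chr2:119351229-119354381, plus strand), was at 77.5, 82.0 and 90.6 FPKM in Unt, 11.6, 3.38 and 2.01 in DOX, 18.5, 8.06 and 4.21 in D_DXZ, and 12.6, 21.4 and 64.0 in D_MgHCF. Its D_MgHCF libraries were widely spread, with an SD of 27.5 around a mean of 32.6 FPKM, and overlapped D_DXZ. The difference was -3.94 (SE 0.672) for DOX against Unt and 2.30 for D_MgHCF against DOX.

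Ddit4, an inhibitor of the growth kinase mTORC1 (chr10:59949669-59951834, minus strand), was at 80.1, 75.2 and 86.1 FPKM in Unt, 11.9, 4.97 and 3.005 in DOX, 20.8, 12.0 and 5.12 in D_DXZ, and 22.5, 24.8 and 66.4 in D_MgHCF. Each D_MgHCF library was above all DOX and D_DXZ libraries and below all Unt libraries. The difference of Ddit4 was -3.59 (SE 0.552) for DOX against Unt and 2.35 for D_MgHCF against DOX.

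Ppp1r15a encodes the stress-induced subunit that brings a phosphatase to eIF2 and so ends the response. It lies at chr7:45522916-45526268 on the minus strand and was at 31.6, 28.5 and 33.3 FPKM in Unt, 7.29, 5.20 and 4.47 in DOX, 12.5, 10.1 and 6.65 in D_DXZ, and 20.9, 23.7 and 27.7 in D_MgHCF. D_MgHCF at 24.1 ± 3.41 FPKM came to 77.6% of the Unt mean, with every library below the Unt range and above the D_DXZ range. The difference was -2.29 (SE 0.213) for DOX against Unt and 1.93 for D_MgHCF against DOX.

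Asns encodes the enzyme that makes asparagine and Psat1 an aminotransferase of serine synthesis, and both are standard targets of ATF4 when amino acids run short. Asns (chr6:7675169-7693254, minus strand, 12 exons) was at 180.4, 196 and 206 FPKM in Unt, 231, 265 and 275 in DOX, 179.9, 256 and 198 in D_DXZ, and 80.7, 55.7 and 63.8 in D_MgHCF. Psat1 (chr19:15904678-15947337, minus strand, 9 exons) was at 207, 229.7 and 231 FPKM in Unt, 567, 630.3 and 668 in DOX, 396, 569 and 506 in D_DXZ, and 175, 129 and 139 in D_MgHCF. Both were lowest in D_MgHCF, below every library of the other 3 groups, at 34.4% of the Unt mean for Asns and 66.4% for Psat1. In DOX both were above Unt on this scale, by 0.40 (SE 0.165) on the log2 scale for Asns and 1.48 (SE 0.169) for Psat1, but the sign turned for Asns to -0.96 with TPM, -1.23 with quantile normalization and -0.54 with FPKM over the summed reads, and for Psat1 to -0.28 with quantile normalization.

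Nupr1, a small stress protein that acts in the nucleus (chr7:126623249-126630861, minus strand), was at 47.4, 46.6 and 43.9 FPKM in Unt, 68.1, 75.8 and 83.7 in DOX, 53.2, 89.3 and 57.3 in D_DXZ, and 38.6, 36.2 and 47.0 in D_MgHCF. The DOX libraries lay above all Unt libraries, and those of D_MgHCF overlapped Unt. The difference of 0.71 (SE 0.179) for DOX against Unt turned to -0.65 with TPM, -0.45 with quantile normalization and -0.23 with FPKM over the summed reads.

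**Figure D1:**
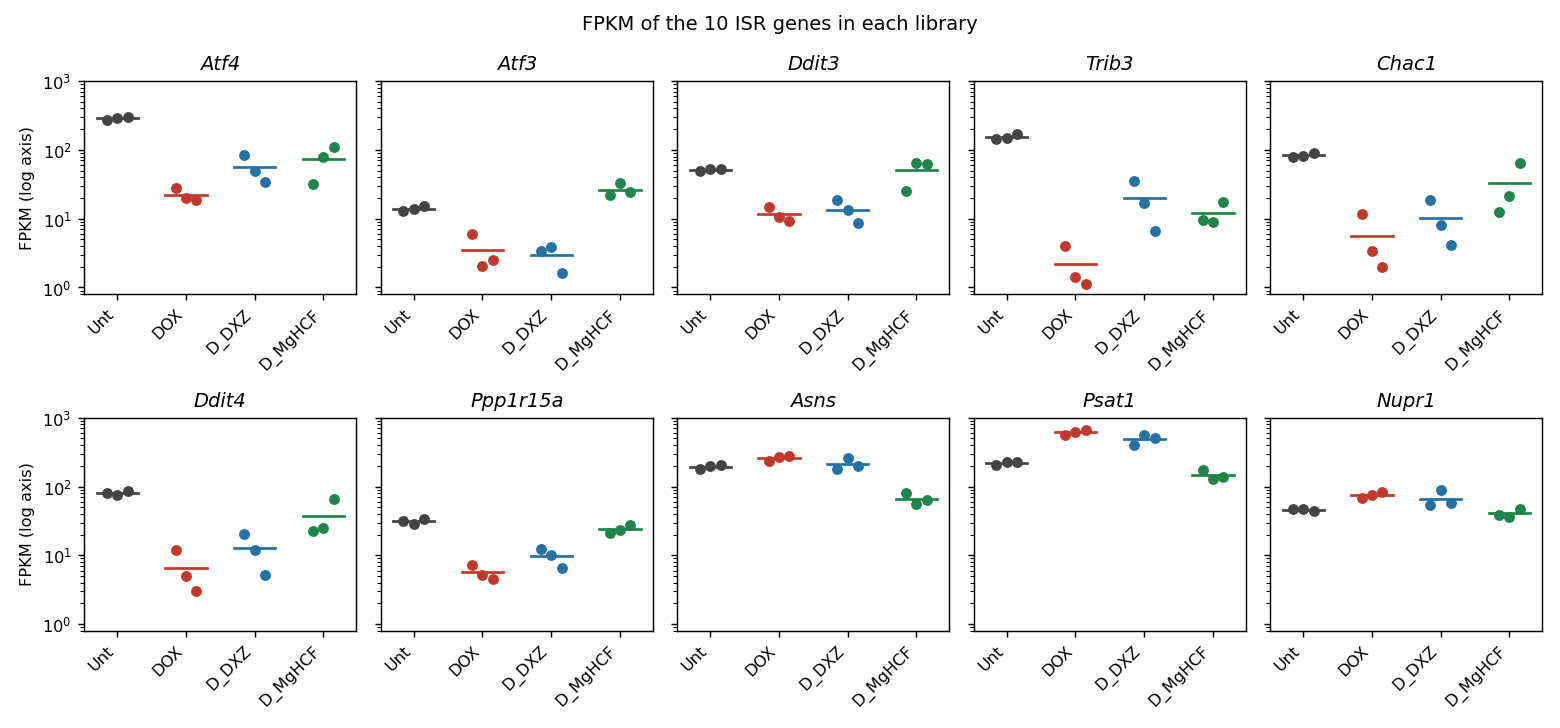
FPKM of the 10 genes (log axis) in the 12 libraries, with a point per library, replicates 1 to 3 from left to right, and a line at each group's mean. In the panels of Asns, Psat1 and Nupr1 all DOX points lie above all Unt points, and in the other 7 they lie below them.

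The scale of the values set the sign for the 3 genes that were higher in DOX. The sum of FPKM over all genes was 216899 to 230292 in Unt and 498756 to 627769 in DOX, and TPM, which sets this sum equal in all libraries, lowers every gene in DOX against Unt by the same ratio. Over 12434 genes with an FPKM of at least 1, the median difference between DOX and Unt was 0.02 on the deposited scale, -1.18 with TPM and -0.68 with FPKM over the summed reads. The medians on the deposited scale and with quantile normalization are set by those scalings, which level the libraries. They serve as reference levels and are not results. With TPM, Psat1 (0.11), Nupr1 (-0.65) and Asns (-0.96) lay above that median of -1.18, while with quantile normalization, where the median was 0.02, all 3 lay below it. The 7 low genes lay below the median under every scaling tried, from -1.69 (Atf3, quantile normalization) to -7.29 (Trib3, TPM).

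**Figure D2:**
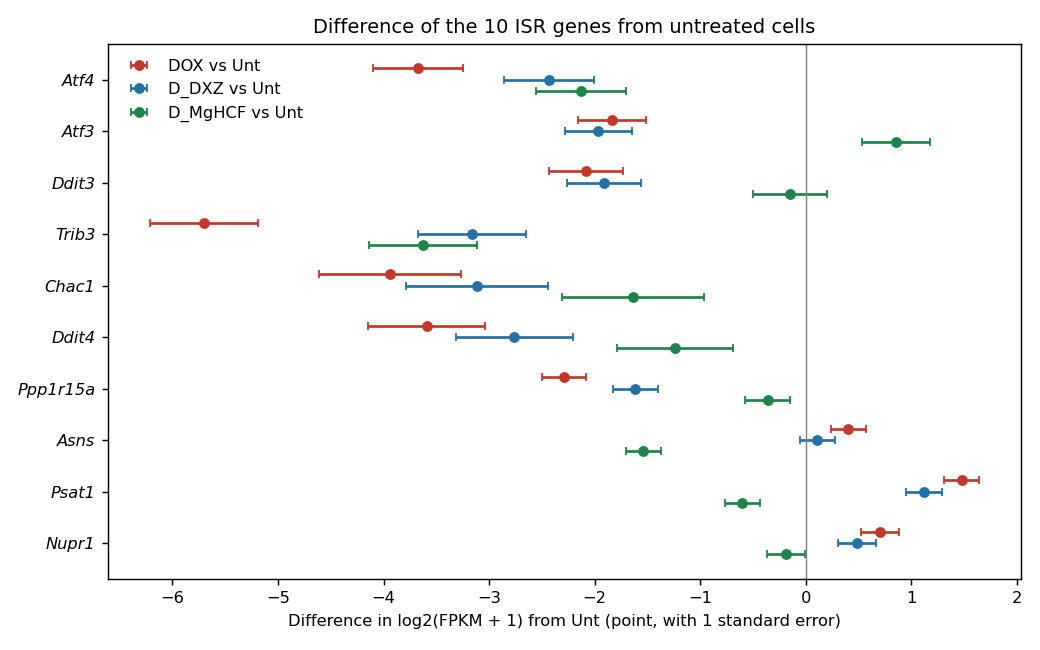
Difference in log2(FPKM + 1) of each of the 10 genes from untreated cells, with a point and 1 standard error for DOX, D_DXZ and D_MgHCF. Asns, Psat1 and Nupr1 are the only ones with DOX points right of 0, and Atf3 is the only one with its D_MgHCF point right of 0.

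Of the 10 genes, 7 were lower and 2 higher in DOX than in Unt at an adjusted p under 0.05 in limma, where 38.4% of all genes tested were called, 18.6% higher and 19.9% lower. In D_DXZ against Unt 7 were lower and 1 higher, against 33.9% of all genes called, 15.9% higher and 18% lower. In D_MgHCF against Unt only Atf4, Trib3, Asns and Psat1 were called, all lower, against 40.1% of all genes, 24.3% higher and 15.7% lower. The Psat1 call was lost without D_MgHCF replicate 2 (-0.51), Unt replicate 2 (-0.58) or Unt replicate 3 (-0.57), and without D_MgHCF replicate 3 Chac1 (-2.27) and Ddit4 (-1.72) were called too. Atf3 (0.85) was called as higher without DOX replicate 1 or D_DXZ replicate 3. With voom 1 of the 10 genes was called as higher, where 28.5% of all genes were. With quantile normalization 1 was too, where the share of all genes is not given here. Since the genes were chosen with these contrasts in view, nothing is read from the counts.

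The next comparison asks whether DXZ altered the levels left by doxorubicin. D_DXZ against DOX had 0 of the 10 genes called by limma, where 0 of 25044 genes were called (0%, with 0% higher and 0% lower), and 2388 genes, 3 of them among the 10, had an unadjusted p under 0.05. With voom on the recovered reads 0 genes were called and 2049 had an unadjusted p under 0.05. Atf4 (1.24, SE 0.428) and Trib3 (2.54, SE 0.514) were the ones whose D_DXZ libraries all lay above the DOX libraries, by 2.56-fold and 9.11-fold of the means, while the other 8 overlapped. Of all genes, 16.3% had D_DXZ and DOX libraries that did not overlap, 7.66% with D_DXZ above. These values do not show that the 8 were alike in the 2 groups.

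With MgHCF NCs added, the libraries of all 10 genes were apart from those of DOX, 7 above and 3 below, where those of 53.2% of all genes were apart, 32.5% above and 20.7% below. In D_MgHCF against DOX 7 genes were higher and 3 lower, where 51.5% of all genes were called, 31.4% higher and 20.1% lower. The ratio of the means was 3.33-fold for Atf4, 7.56-fold for Atf3, 4.33-fold for Ddit3, 5.51-fold for Trib3, 5.77-fold for Chac1, 5.73-fold for Ddit4 and 4.27-fold for Ppp1r15a. In the other direction DOX was 3.85-fold D_MgHCF for Asns, 4.21-fold for Psat1 and 1.87-fold for Nupr1. The Nupr1 difference of -0.89 turned to 0.31 with TPM, 0.15 with quantile normalization and 0.06 with FPKM over the summed reads, while the sign held for the other 9 under every scaling. The Chac1 call was lost without DOX replicate 2 (2.13) or DOX replicate 3 (1.86).

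The last comparison sets the protectants against each other. In D_MgHCF against D_DXZ 4 of the 10 genes were higher (Atf3, Ddit3, Ddit4 and Ppp1r15a) and 3 lower (Asns, Psat1 and Nupr1), against 48.4% of all genes called, 29.4% higher and 19% lower. Atf4 (0.30, SE 0.428) and Trib3 (-0.46, SE 0.514) overlapped between them, and Chac1 (1.47, SE 0.672) did too, though it was called without D_DXZ replicate 1 (1.97) or D_MgHCF replicate 1 (1.97). The Ddit4 call (1.52) was lost without D_DXZ replicate 2 or 3, D_MgHCF replicate 2 or 3, DOX replicate 2 or any Unt replicate, with values from 1.03 to 1.73. The Nupr1 difference of -0.67 turned to 0.36 with TPM, 0.16 with quantile normalization and 0.10 with FPKM over the summed reads. Doses of DXZ and MgHCF NCs in these cells are not given in the sources used here, so the comparison is between the treatments as applied.

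Within the treated groups the 7 genes low in DOX were high or low together from library to library. Their summed FPKM was between 666 and 741 in the Unt libraries, 83.2, 47.4 and 40.7 in DOX, 195, 114 and 66.8 in D_DXZ, and 144, 254 and 372 in D_MgHCF. DOX replicate 1 was the highest of its group for all 7 genes, D_DXZ replicate 1 for 6 and D_DXZ replicate 3 the lowest for 7. In D_MgHCF replicate 1 was the lowest for 6 genes and replicate 3 the highest for 5. The sum of FPKM over all genes ran the other way within each treated group, at 498756, 616889 and 627769 in DOX, 447052, 544013 and 549680 in D_DXZ, and 290996, 238933 and 220276 in D_MgHCF, and its part in the result was not tested.

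**Figure D3:**
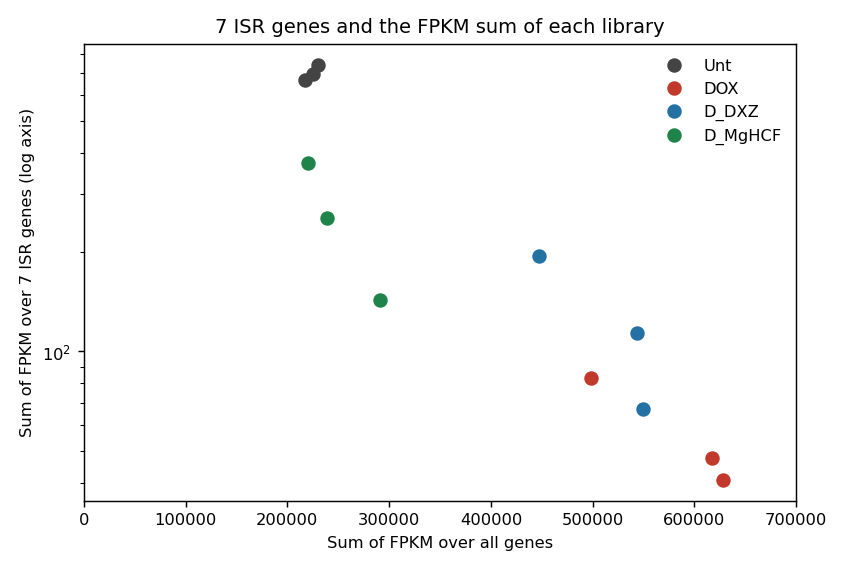
Summed FPKM of the 7 genes that were low in DOX (log axis) against the sum of FPKM over all genes, with a point per library coloured by group. The Unt points sit at the upper left (666 to 741), the DOX points at the lower right (40.7 to 83.2), and within each treated group the library with the smaller sum over all genes has the higher point.

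Over the 12 libraries the log2(FPKM + 1) values of the 7 genes correlated with each other at 0.463 to 0.992 (median 0.889, 21 pairs), and the closest pair was Chac1 and Ddit4. Asns, Psat1 and Nupr1 correlated at 0.764 to 0.911 with each other, and pairs across the 2 sets at -0.945 to -0.056. The 2 sets were split by their direction in DOX against Unt in these same libraries on the deposited scale. The signs within and across them therefore follow in part from the split. These values describe 12 libraries of 4 groups that share their scaling, and carry no test.

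Among 6873 other genes with a mean of at least 5 FPKM, the 3 whose log2(FPKM + 1) values over the 12 libraries were most like those of each gene were listed by Pearson's r. For Atf4 they were Rnf168 (0.993), Herpud1 (0.992) and Ndufaf1 (0.990), and 374 of the 6873 reached 0.9. Herpud1, which serves ER-associated degradation, is also on the ISR list below. For Trib3 they were Ate1 (0.984), Id3 (0.983) and Gadd45a (0.983). Rhob was the closest gene to both Chac1 (0.996) and Ddit4 (0.994). For Asns they were Gars (0.987), a tRNA synthetase, Pole2 and Tep1 (both 0.984). For Psat1 1865 genes reached 0.9, led by Rhoa (0.996). The closest genes were Gpank1 (0.994) for Atf3, Prpf38a (0.993) for Ddit3, Usf1 (0.995) for Ppp1r15a and Fut11 (0.952) for Nupr1.

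The wider response was read from 72 genes in 5 lists, of which 71 were tested (Pmaip1 was listed at 0 in all libraries), with adjusted p over all 25044 genes from limma. Of all genes, 38.4% were called in DOX against Unt (18.6% higher, 19.9% lower) and 51.5% in D_MgHCF against DOX (31.4% higher, 20.1% lower). In D_MgHCF against Unt 40.1% were called (24.3% higher, 15.7% lower). The counts of each list below are to be read beside these shares. In DOX against Unt 25 of the 71 fell and 18 rose, with a median difference of -0.00 beside 0 over all genes. The lists went different ways, and the counts of rises depend on the scale: with TPM 65 of the genes fell and 1 rose, and with FPKM over the summed reads 48 fell and 2 rose. With TPM the median of 12434 genes was itself -1.18 in DOX against Unt and 1.02 in D_MgHCF against DOX. With FPKM over the summed reads it was -0.68 and 0.67. Counts under these scalings, here and below, are to be read beside these medians, since the shares of all genes called under them are not given here.

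Most of the other ISR transcription factors and effectors fell in DOX, 15 of 21 against Unt, and 0 rose, with a median of -1.36. With TPM 20 fell and 0 rose, with a median of -2.74 beside -1.18 for the 12434 genes. Cebpb, a C/EBP partner of ATF4, fell from 49.0 ± 4.37 to 2.50 ± 0.894 FPKM (log2 difference -3.86, SE 0.651, adjusted p = 0.000711). Herpud1 fell from 45.9 ± 3.67 to 4.505 ± 0.726 FPKM (-3.10, SE 0.294, adjusted p = 2.23e-05). Atf5, another ATF4-like factor, was at 141 ± 7.40 FPKM against 147 ± 13.1 in Unt (-0.06, adjusted p = 0.919).

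In D_MgHCF against DOX 12 of these 21 genes rose and 4 fell, with a median of 1.33, where 31.4% of all genes rose and 20.1% fell. Gdf15, a secreted stress cytokine, rose from 4.52 ± 3.03 to 36.2 ± 10.4 FPKM (2.85, SE 0.370, adjusted p = 0.000118), and Txnip, a regulator of glucose uptake and redox balance, from 3.11 ± 1.89 to 22.8 ± 3.21 (2.63, SE 0.303, adjusted p = 5.57e-05). In every D_MgHCF library both were also above every Unt library, by 0.83 (adjusted p = 0.0977) and 0.69 (adjusted p = 0.0950), differences that did not pass the test. Atf5 fell to 30.3 ± 7.60 FPKM (-2.21, SE 0.218, adjusted p = 2.25e-05) and Eif4ebp1, a repressor of translation, from 136 ± 12.3 to 34.6 ± 8.66 (-1.96, SE 0.163, adjusted p = 9.15e-06), and both falls kept their sign under every scaling.

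Of 11 amino acid and folate enzymes 5 rose and 0 fell in DOX against Unt on the deposited scale, while with TPM 0 rose and 9 fell. Phgdh, the first enzyme of serine synthesis, rose from 339 ± 32.3 to 894 ± 70.3 FPKM (1.40, SE 0.204, adjusted p = 0.000275), a rise that became 0.03 with TPM and -0.51 with quantile normalization. Shmt2, the mitochondrial serine hydroxymethyltransferase, rose from 242 ± 29.4 to 505 ± 51.8 FPKM (1.06, adjusted p = 0.000872), which became -0.31 with TPM and -0.71 with quantile normalization. In D_MgHCF against DOX 9 of the 11 fell and 0 rose, and with TPM 4 fell and 3 rose. Mthfd1l, of mitochondrial folate metabolism, fell from 80.0 ± 6.84 to 14.5 ± 7.43 FPKM (-2.50, adjusted p = 4.02e-05) and Aldh18a1, of proline synthesis, from 259 ± 26.0 to 51.3 ± 17.7 (-2.36, adjusted p = 1.27e-05), and these 2 kept their sign under every scaling. Against Unt 7 of the 11 fell in D_MgHCF and 0 rose, and the counts with TPM were 7 and 0.

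The aminoacyl-tRNA synthetases, which load tRNAs with amino acids and are ATF4 targets as a group, were lowest in D_MgHCF. All 12 fell in D_MgHCF against Unt, with a median of -1.62, and all 12 did so under each other scaling. All 12 fell against DOX as well, with a median of -1.89, and 8 with TPM and 10 with FPKM over the summed reads, with 0 higher under any scaling. Tars was at 38.2 ± 0.713 FPKM in Unt, 69.8 ± 9.63 in DOX, 56.7 ± 4.60 in D_DXZ and 7.80 ± 1.24 in D_MgHCF (-3.01 against DOX, SE 0.124, adjusted p = 2.13e-06). Lars fell from 221 ± 22.7 FPKM in DOX to 41.5 ± 20.2 (-2.49, SE 0.280, adjusted p = 4.71e-05). In DOX against Unt 5 of the 12 rose and 1 fell, while with TPM 0 rose and 12 fell and with quantile normalization 0 rose and 10 fell. The 5 include Tars (0.84) and Nars (0.84), both below 0 with TPM, with quantile normalization and with FPKM over the summed reads, and Iars fell (-0.88, SE 0.312, adjusted p = 0.0478).

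Amino acid transporters were split. In DOX against Unt 5 of 10 fell and 1 rose, with a median of -0.72, and with TPM 9 fell and 0 rose. Slc7a1, the carrier of arginine and lysine, fell from 33.3 ± 2.34 to 3.79 ± 0.368 FPKM (-2.84, SE 0.209, adjusted p = 1.15e-05), and Slc38a2, a carrier of small neutral amino acids, from 40.7 ± 1.11 to 4.89 ± 0.982 (-2.84, SE 0.294, adjusted p = 3.53e-05). Slc7a5, the leucine carrier, rose from 267 ± 27.2 to 407 ± 30.9 FPKM (0.61, adjusted p = 0.0123), which turned to -0.76 with TPM, -1.22 with quantile normalization and -0.34 with FPKM over the summed reads. In D_MgHCF against DOX 3 rose and 1 fell, with a median of -0.01, while with TPM 7 rose and 0 fell, with a median of 1.00. The share of transporters called there on the deposited scale, 40%, was below the 51.5% of all genes. Slc43a1, chosen after its values were seen, was called as a rise at a mean of 0.0522 FPKM (0.07, adjusted p = 0.0341). Slc1a4, a carrier of alanine and serine, rose from 16.2 ± 1.57 to 36.3 ± 10.7 FPKM (1.08, adjusted p = 0.000945) and Slc38a2 to 11.8 ± 5.92 (1.04, adjusted p = 0.0135), while Slc7a5 fell to 179 ± 19.95 (-1.18, adjusted p = 0.000170), a fall that became 0.03 with TPM and 0.39 with quantile normalization.

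Upstream of Atf4, among 17 genes for the eIF2 kinases, eIF2 and its exchange factor eIF2B, 7 rose and 4 fell in DOX against Unt (with TPM 1 rose and 15 fell). Ppp1r15b, the constant partner of the phosphatase that Ppp1r15a recruits, fell from 31.9 ± 2.27 to 5.23 ± 1.69 FPKM (-2.43, SE 0.188, adjusted p = 1.18e-05) and rose to 23.6 ± 1.64 in D_MgHCF (2.01 against DOX, adjusted p = 1.69e-05). Eif2b4, a subunit of eIF2B, fell from 12.4 ± 1.49 to 4.76 ± 0.926 FPKM (-1.23, adjusted p = 0.000165). Eif2s3x, a subunit of eIF2, rose from 37.8 ± 0.746 to 115 ± 10.1 FPKM (1.57, adjusted p = 1.18e-05, above 0 under every scaling). Eif2b5, the catalytic subunit of eIF2B, rose from 29.6 ± 2.07 to 62.8 ± 8.69 FPKM (1.05, adjusted p = 4.53e-05, but -0.29 with TPM).

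Of the 17, 10 fell and 4 rose in D_MgHCF against DOX, where 20.1% of all genes fell and 31.4% rose. With TPM 4 of the 17 fell and 9 rose. Eif2s3x (-1.84, adjusted p = 3.63e-06) and Eif2b5 (-1.81, adjusted p = 3.08e-06) fell and kept their sign under every scaling. Eif2ak3, which encodes the ER stress kinase PERK, was at 3.35 ± 0.192 FPKM in Unt, 1.88 ± 0.427 in DOX and 6.73 ± 1.66 in D_MgHCF (1.41 against DOX, SE 0.189, adjusted p = 0.000142, and 0.81 against Unt, adjusted p = 0.00745).

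The ER chaperones and the ATF6 and IRE1 arms of the unfolded protein response run beside the ISR, and most of their genes rose in DOX. In DOX against Unt 12 of these 17 genes rose and 2 fell, with a median of 1.52, where 18.6% of all genes rose and 19.9% fell. With TPM 7 of the 17 rose and 6 fell. Hsp90b1, the ER form of HSP90, rose from 74.9 ± 8.59 to 395 ± 44.9 FPKM (2.38, SE 0.328, adjusted p = 0.000192) and Calr, a calcium-binding chaperone, from 202 ± 15.5 to 1025 ± 164 (2.33, SE 0.190, adjusted p = 1.31e-05), both above 0 under every scaling. The 2 that fell were Xbp1, the factor spliced by IRE1, from 14.4 ± 1.02 to 2.86 ± 0.343 FPKM (-1.99, adjusted p = 4.55e-05), and Ern1, which encodes IRE1, from 13.6 ± 0.635 to 4.12 ± 0.613 (-1.52, adjusted p = 1.66e-05), both below 0 under every scaling.

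Of the 17, 11 fell and 3 rose in D_MgHCF against DOX, where 20.1% of all genes fell and 31.4% rose. With TPM 3 of the 17 fell and 9 rose. Xbp1 rose to 16.9 ± 4.27 FPKM (2.19, SE 0.217, adjusted p = 2.36e-05) and Dnajb9, an XBP1 target, from 2.85 ± 0.464 to 22.3 ± 13.9 (2.33, SE 0.448, adjusted p = 0.00148), with Ern1 as the other rise. Hsp90b1 fell to 107 ± 50.3 FPKM (-2.004, adjusted p = 0.000529) and Pdia4, a disulfide isomerase, from 239 ± 28.2 to 67.3 ± 23.6 (-1.86, adjusted p = 7.30e-05), and both kept their sign under every scaling.

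**Figure D4:**
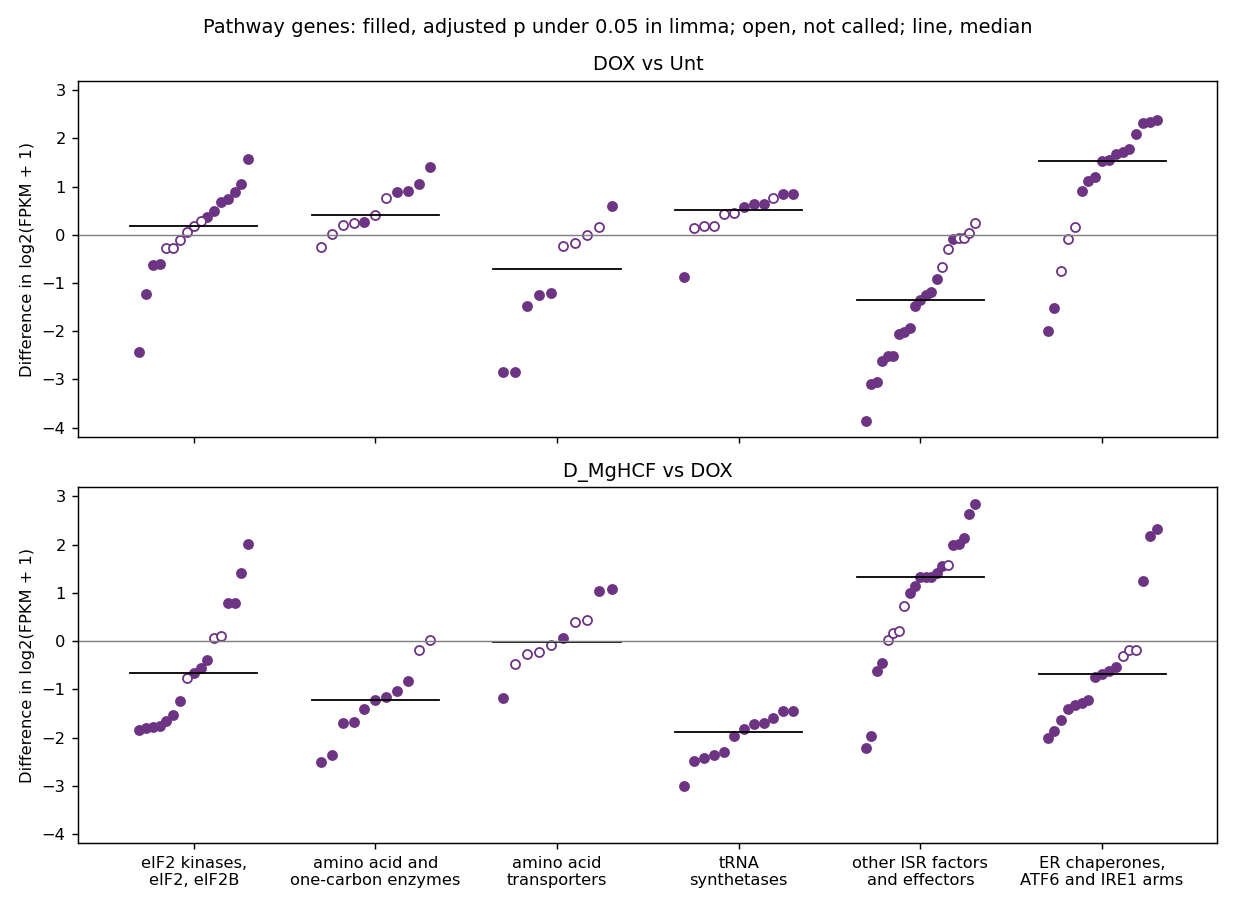
Difference in log2(FPKM + 1) of the genes of 6 lists, for DOX against Unt (upper panel) and D_MgHCF against DOX (lower panel), with filled points at an adjusted p under 0.05 in limma, open points not called and a line at each list's median. In the upper panel the median is -1.36 for the other ISR factors and effectors and 1.52 for the ER chaperones, and in the lower panel all 12 tRNA synthetases are filled and below 0, with a median of -1.89.

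With DXZ added, the wider lists held no call against DOX. In D_DXZ against Unt 24 of the 71 genes fell and 10 rose, where 18% of all genes fell and 15.9% rose. In D_DXZ against DOX 0 of the 71 were called by limma or by voom, where 0% of all genes were. In limma 12 of the 71 had an unadjusted p under 0.05, beside 9.54% of all genes. Of the 71, 20 had libraries that did not overlap, against 16.3% of all genes, 7.66% with D_DXZ above. Among the 12, 9 did not overlap, a number that picking by a low p favours. These 9 are named here after their values were seen, with adjusted p in limma from 0.201 to 0.504. With D_DXZ above DOX they were Cebpb (1.56), Slc7a1 (1.05), Slc38a2 (1.04), Herpud1 (0.92), Ppp1r15b (0.83) and Vegfa (0.47), and with D_DXZ below DOX Oma1 (-0.50), Eif2b2 (-0.35) and Got1 (-0.23). In D_MgHCF against D_DXZ 15 of the 71 rose and 38 fell, where 29.4% of all genes rose and 19% fell. In D_MgHCF against Unt 4 of the 71 rose and 40 fell, where 24.3% of all genes rose and 15.7% fell.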

How the data were processed

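RNA was poly(A) selected and sequenced from 12 libraries in 4 groups. Per the submitters' processing notes, reads were aligned with HISAT2 2.0.5 to GRCm38 (mm10), and the authors deposited 1 FPKM value per gene and library. The counting program, its use of strand and the annotation release are not given in the sources used here. FPKM times gene length gave whole multiples of 1 step per library for 100% of values (tolerance 0.01).

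Differences in log2(FPKM + 1) were tested with limma 3.58.1 (R 4.3.3, trend, two-sided, Benjamini-Hochberg over 25044 genes above 0 in at least 3 libraries), 1 fit over 4 groups with 6 comparisons, and called at an adjusted p under 0.05. The fit was tested on simulated data in which all 4 groups had the spread of the Unt libraries. The wider spread of D_MgHCF was thus not covered. Alternatives were another pseudocount, other filters, voom on the recovered reads, TPM, quantile normalization, FPKM over the summed reads, the replicate block, fits of 2 groups alone, other call thresholds and leaving out each library.

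The 10 genes and all lists were chosen with earlier results of these data known. Pathway genes named are the 2 largest rises and falls per list (called, libraries not overlapping, mean of at least 1 FPKM in the higher group) in DOX against Unt and D_MgHCF against DOX. The most alike genes are those with the highest Pearson's r. Promoters came from RefSeq (GRCm38.p6), which held all 10 genes, 55 of the 72 pathway genes and 14 of the 17 ER chaperone genes. The motif counts of the last 2 lists cover only the genes held. Copies of the 10 genes were searched with BLAST 2.17.0 (at least 95% identity over 150 bases), and 0 were found.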

Additional observations from a re-analysis of the deposited data

How the results depend on the processing

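Of 1260 alternative values of the 10 genes' differences, 1155 lay within 1 SD between replicates of the reported value. Many of the 1260 could not move, since a filter, the replicate block or leaving out a library of another group does not alter a difference. Of the 60 values under each scaling, 19 lay within 1 SD with TPM, 31 with quantile normalization and 27 with FPKM over the summed reads. Of the 1260, 31 changed sign, 12 of them for a difference called in the fit. The 12 were Psat1 in DOX against Unt with quantile normalization (-0.28), Psat1 in D_DXZ against Unt with TPM (-0.065) and quantile normalization (-0.36), Nupr1 in DOX against Unt with TPM (-0.65), quantile normalization (-0.45) and FPKM over the summed reads (-0.23), Nupr1 in D_MgHCF against DOX (0.31, 0.15 and 0.062 in that order) and Nupr1 in D_MgHCF against D_DXZ (0.36, 0.16 and 0.10). The other 19 concern differences that were not called, 8 with a library left out and 11 with another scaling (Asns and Nupr1 in D_DXZ against Unt, Asns in DOX against Unt and Trib3 in D_MgHCF against D_DXZ). FPKM over the summed reads was chosen after seeing the data. In DOX against Unt, pathway genes that rose (18) numbered 1 with TPM, 4 with quantile normalization, 2 with FPKM over the summed reads and 4 with a 2-fold minimum, and those that fell (25) numbered 65, 48 and 48 under the first 3. In D_DXZ against Unt the rises (10) became 0, 4, 1 and 2, and the falls (24) became 63, 46 and 51. In D_MgHCF against DOX the rises (19) became 35 with TPM and 31 with FPKM over the summed reads, and the falls (36) became 18 and 23. In D_MgHCF against D_DXZ the rises (15) became 29 and 24, and the falls (38) became 17 and 20. In D_MgHCF against Unt 4 of the 10 genes were called in the fit, where 40.1% of all genes were. With voom 7 were called, where 28.5% of all genes were called as higher and 16.7% as lower. At an unadjusted p under 0.05 in limma 7 passed, where 49.2% of all genes did. The pathway rises (4) were 7 with quantile normalization, 7 at an unadjusted p, 1 with a 2-fold minimum and 2 to 7 with 1 library left out. They were 2 without any 1 Unt replicate, DOX replicate 2 or D_MgHCF replicate 2 and 7 without D_MgHCF replicate 3. In D_DXZ against DOX an unadjusted p gave 3 of the 10 genes, 6 pathway rises and 6 falls, where 9.54% of all genes passed. The shares of all genes called with TPM, quantile normalization and FPKM over the summed reads are not given here. The cause was not tested.

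Libraries of different groups share replicate numbers, and their deviations from the group means correlated at -0.314 to 0.306 over all pairs. Pairs with the same number were at 0.306, 0.033 and 0.220 between DOX and D_DXZ, and at -0.314, 0.037 and -0.103 between D_DXZ and D_MgHCF. These values do not settle whether the numbers pair the samples. With the replicate block, 9, 8, 4, 0, 10 and 6 of the 10 genes were called in DOX against Unt, D_DXZ against Unt, D_MgHCF against Unt, D_DXZ against DOX, D_MgHCF against DOX and D_MgHCF against D_DXZ, where 9, 8, 4, 0, 10 and 7 were called without it. Under the block the pathway rises in that order were 17, 9, 4, 0, 17 and 16, and the falls 25, 24, 40, 0, 36 and 37. Without the block 38.4%, 33.9%, 40.1%, 0%, 51.5% and 48.4% of all genes were called in that order. The shares of all genes called under the block are not given here, so nothing is read from its counts.

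With 3 libraries a group and 28 to 128 reads on Trib3 in a DOX library, folds of the lowest genes are loosely set.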
